A study of Peromyscus maniculatus with 16 samples.

Results

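The Slc17a genes encode the solute carrier 17 family, membrane proteins that move organic anions. The gene table of these deer mouse livers held 9 rows whose symbol begins with Slc17a, out of 16910 genes in all. Slc17a1 was taken first because it was known to have one of the largest falls in steatotic livers against controls. It was thus chosen by its measured counts in S and C, and its values in the 3 groups are given as a description with no test. The other Slc17a rows were taken by their symbol alone.

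RNA was sequenced from the livers of 16 outbred deer mice (Peromyscus maniculatus), all about 10 months old when they were killed. The control group (C) held 6 animals on a regular chow diet, none of them with steatosis. The other animals received a high fat diet (HFD, rich in fat and sucrose) for 28 weeks, and 5 of them had no steatosis (NS) while 5 had steatosis (S), which is the build-up of fat in the liver. No gene was deleted and no drug was given. In each group 1 animal was of the SM2 stock (P. m. sonoriensis) and the others were of the BW stock (P. m. bairdii), both bred in captivity from wild-caught founders. All C and NS animals were male, while S held 3 females and 2 males, so sex and steatosis were largely confounded and the 2 S males alone allow a comparison within 1 sex. Steatosis was not assigned but arose in some of the animals on HFD, and each animal gave 1 liver sample.

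The family splits by what its members carry. Slc17a1, Slc17a2, Slc17a3 and Slc17a4 lie side by side in mammalian genomes and were first described as sodium-dependent phosphate transporters. They also carry urate and other organic anions, a role best studied in kidney tubule cells. Slc17a5 (sialin) exports sialic acid from lysosomes. Slc17a6, Slc17a7 and Slc17a8 load glutamate into synaptic vesicles of neurons, and Slc17a9 loads ATP and other nucleotides into vesicles.

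Total counts lay between 4640733 and 11349971 per animal, and levels are given as CPM, counts scaled to a common library size, after TMM normalization, which scales each library by a factor, here between 0.851 and 1.17. The summed level of the hepatocyte markers found in the table (5 of 8) overlapped between the groups, at 24734 to 47710 CPM in C, 36740 to 64310 CPM in NS and 25679 to 44591 CPM in S, although within that list Apoa2 was lower and Fabp1 higher in S than in C. Of 6 kidney tubule markers, Slc34a1, Slc22a12 and Umod had no count in any animal, and the summed level of the list overlapped between the groups at 9.45 to 13.9 CPM in C, 9.77 to 16.6 CPM in NS and 10.5 to 20.2 CPM in S. Animal S 36016 stood apart, with Col1a1, a collagen gene, at 2057 CPM against 3.26 to 16.98 CPM in the other animals, Acta1, a muscle actin, at 118 CPM against at most 0.882 CPM, and Cav1, a caveolar protein, at 237 CPM against at most 2.29 CPM. Dcn is on the same stellate cell list as Col1a1. It was lower in S at 134 ± 32.3 CPM (SD, n = 5) than in C at 277 ± 87.2 CPM (n = 6). Its log2 difference was -1.05 (adjusted p = 0.03541, edgeR). The other genes of that list differed the other way, with Col1a1 at 5.56, Lrat at 0.89, Pdgfrb at 0.66 and Reln at 0.07. The median over the 5 genes was 0.66. The Kupffer cell markers summed to 103 to 673 CPM in S, with the highest value in S 35990, against 191 to 432 CPM in C. A1bg, a female-biased liver gene in the mouse, was at 128 to 381 CPM in the 3 animals labelled female and at 0 to 17.6 CPM in those labelled male. It was 1 of 8 such genes tested, whose median log2 difference between S females and S males was 0.39. The median of 3 male-biased genes was -0.77.

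Slc17a1 was lowest in the steatotic livers. In C its level was 28.5, 53.5, 58.0, 75.2 and 379 CPM in the BW animals 35972, 35998, 35975, 36001 and 36007, and 266 CPM in the SM2 animal 10876. In NS it was 17.5, 38.3, 52.2 and 61.6 CPM in the BW animals 35963, 35930, 35937 and 35987, and 61.8 CPM in the SM2 animal 10865. In S it was 0.188, 0.371, 0.763 and 10.3 CPM in the BW animals 36016, 35982, 35990 and 35955, and 1.22 CPM in the SM2 animal 10880. Every S animal was below every C and every NS animal, an order without overlap that 2.33% of all genes tested had against C and 0.752% against NS. Meanwhile C and NS overlapped and C was spread over 13.3-fold, with 36007 and 10876 far above the other 4 controls.

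The lowest Slc17a1 levels rested on few reads. S 36016 had 1 count, which allows 0.00475 to 1.05 CPM (95% exact Poisson interval, counting error only), and S 35982 had 2 counts, which allows 0.0449 to 1.34 CPM. S 35990 had 8 counts and S 10880 had 10 counts, while S 35955, the highest S animal, had 118 counts. In C and NS no animal had fewer than 137 counts. Each steatotic liver thus held at least 1 read of Slc17a1, and in 4 of the 5 the level rested on 10 counts or fewer.

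The mean Slc17a1 level was 143 ± 144 CPM in C (SD, n = 6), 46.3 ± 18.7 CPM in NS (n = 5) and 2.57 ± 4.34 CPM in S (n = 5), with medians of 66.6, 52.2 and 0.763 CPM. The order was therefore C, NS and S. The means of C and NS differed by less than the SD of the C animals, and 1 NS animal, 35963 at 17.5 CPM, was below every C animal. The fitted difference of S from C was -5.64 on the log2 scale (SE 0.92), that of S from NS was -4.01 (SE 0.88) and that of NS from C was -1.63 (SE 0.74). These SEs describe the fit and are no test, because Slc17a1 was chosen by its counts in S and C. Without S 35955 the differences of S were larger in size, at -7.66 against C and -6.03 against NS. Among the males alone, of which S held only 2, the difference of S from C was -7.49 and that of S from NS was -5.86. In whole liver, fewer cells that express a gene and less RNA per cell cannot be told apart.

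**Figure D1:**
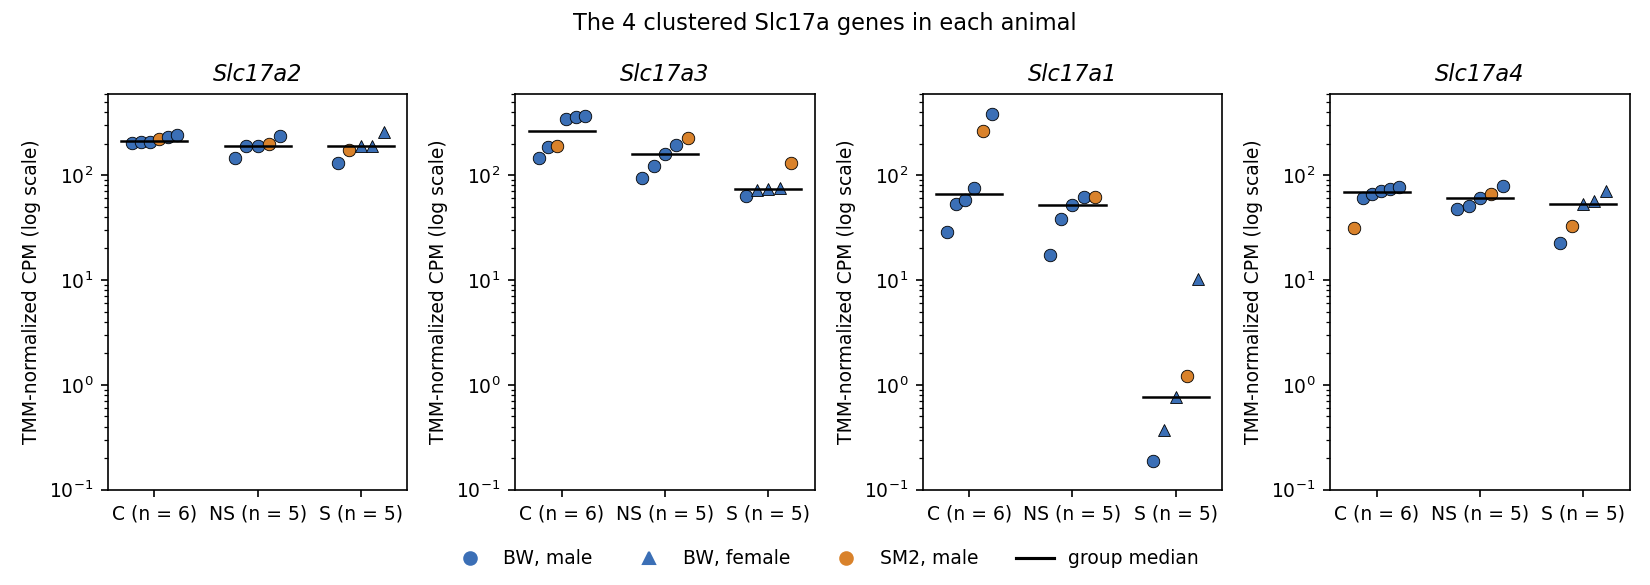
Level of the 4 clustered genes Slc17a1, Slc17a2, Slc17a3 and Slc17a4 in each animal, in CPM on a log axis, for the C, NS and S groups. Blue points are BW and orange points SM2 animals, circles are males and triangles females, and black lines are group medians. The Slc17a1 panel shows all 5 S animals at 10.3 CPM or below and no C or NS animal under 17.5 CPM, and in the Slc17a3 panel S ends at 129 CPM while C starts at 144 CPM.

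Slc17a3, the direct neighbour of Slc17a1 and likewise a carrier of urate and organic anions, was also lower in steatotic livers. Its level in C was 144, 187, 341, 355 and 363 CPM in the BW animals 35998, 35972, 36001, 35975 and 36007, and 189 CPM in the SM2 animal 10876. In S the BW animals 36016, 35955, 35990 and 35982 lay close together at 63.6, 71.4, 73.5 and 75.2 CPM, and the SM2 animal 10880 was higher at 129 CPM. The S and C animals did not overlap. In NS the levels were 93.9, 123, 160 and 195 CPM in the BW animals 35937, 35930, 35963 and 35987 and 224 CPM in the SM2 animal 10865, a range that overlapped both other groups.

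Mean Slc17a3 was 263 ± 99.8 CPM in C (SD, n = 6), 159 ± 52.7 CPM in NS (n = 5) and 82.6 ± 26.5 CPM in S (n = 5). Slc17a3 fell by 1.67 on the log2 scale in S vs C (SE 0.29, 95% interval -2.28 to -1.06), or 3.18-fold, with an adjusted p of 0.01248 by edgeR's quasi-likelihood test over all 12639 genes tested. A gene was called when its adjusted p was under 0.1 and its fold change at least 2. Slc17a3 was the only one of the 6 other family members tested that was called in S vs C, where 4.06% of all genes tested were called and 0.965% were called lower in S. As for Slc17a1, no S animal overlapped C, which held for 2.33% of all genes tested.

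The lower Slc17a3 level in S was called under every alternative and without any 1 of the animals, with adjusted p values between 6.284e-06 and 0.08503. The BW animals alone gave -1.97 (adjusted p = 0.00733, edgeR) and the males alone -1.44 (adjusted p = 0.08503, edgeR). Without S 36016 and S 35990, the animals with high collagen and Kupffer cell markers, it was -1.52 (adjusted p = 0.06314, edgeR). Between NS and C the difference was -0.72 (SE 0.28, adjusted p = 0.5307) and between S and NS -0.95 (SE 0.29, adjusted p = 0.3074), and neither was called by edgeR.

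Slc17a2 and Slc17a4, the outer members of the cluster, were not called between the groups. Slc17a2 was at 202 to 240 CPM in C, 147 to 237 CPM in NS and 130 to 255 CPM in S, and the groups overlapped. Its S vs C difference was -0.22 on the log2 scale (95% interval -0.55 to 0.11, adjusted p = 0.4011, edgeR), an interval that leaves out a fall as large as that fitted for Slc17a3. Slc17a4 was at 31.6 to 77.6 CPM in C, 47.7 to 79.4 CPM in NS and 22.7 to 71.1 CPM in S, with a difference of -0.42 (95% interval -0.98 to 0.14, adjusted p = 0.3485, edgeR) in S vs C. In neither gene were the S animals all on one side of the C animals.

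The call for Slc17a4 changed with sex in the model. The 2 S males were at 22.7 CPM (36016) and 32.6 CPM (10880), while the 3 S females were at 53.2 CPM (35990), 56.7 CPM (35982) and 71.1 CPM (35955). With sex as a covariate, or among males alone, Slc17a4 was called lower in S than in C by 1.19 on the log2 scale, with an adjusted p of 0.03943 and 0.06153 by edgeR. The 2 low S males include the SM2 animal, and the SM2 control 10876 was as low at 31.6 CPM while the 5 BW controls lay between 60.7 and 77.6 CPM. The SM2 animal of NS, 10865, was not low, at 66.0 CPM within an NS range of 47.7 to 79.4 CPM. Sex, stock and the collagen-rich sample 36016 thus overlap in these 2 males, and their part in the difference was not tested.

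In the order given by the RefSeq annotation of another deer mouse assembly, the cluster runs Slc17a2, Slc17a3, Slc17a1, Slc17a4, and the annotated spans of Slc17a1 and Slc17a4 overlap. The strand setting of the read counting was not given in the sources used here, so the values of these overlapping genes are uncertain to that extent. The 3 genes before the cluster are Trim38, Hfe, which encodes a regulator of iron uptake, and Abt1, and the 3 after it are Carmil1, Ripor2 and Armh2. None of the 5 that passed the filter on low counts was called by edgeR in any of the 3 group comparisons. Of all genes tested, 4.06% were called when S was set against C. The shares were 0.0712% for NS against C and 0.00791% for S against NS. At such shares a count of 0 among 5 genes is no result about where the change ends. Hfe was at 25.6 to 39.6 CPM in C and 27.0 to 40.9 CPM in S, with a difference of 0.17 (SE 0.15). Abt1 differed by 0.02 (SE 0.15), Carmil1 by 0.36 (SE 0.43) and Ripor2 by 0.25 (SE 0.50). Trim38 was at 0 in 7 of the 16 animals and reached 11.1 CPM in 1 NS animal, with a difference of -2.13 (SE 1.57). Armh2 had no count in any animal.

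**Figure D2:**
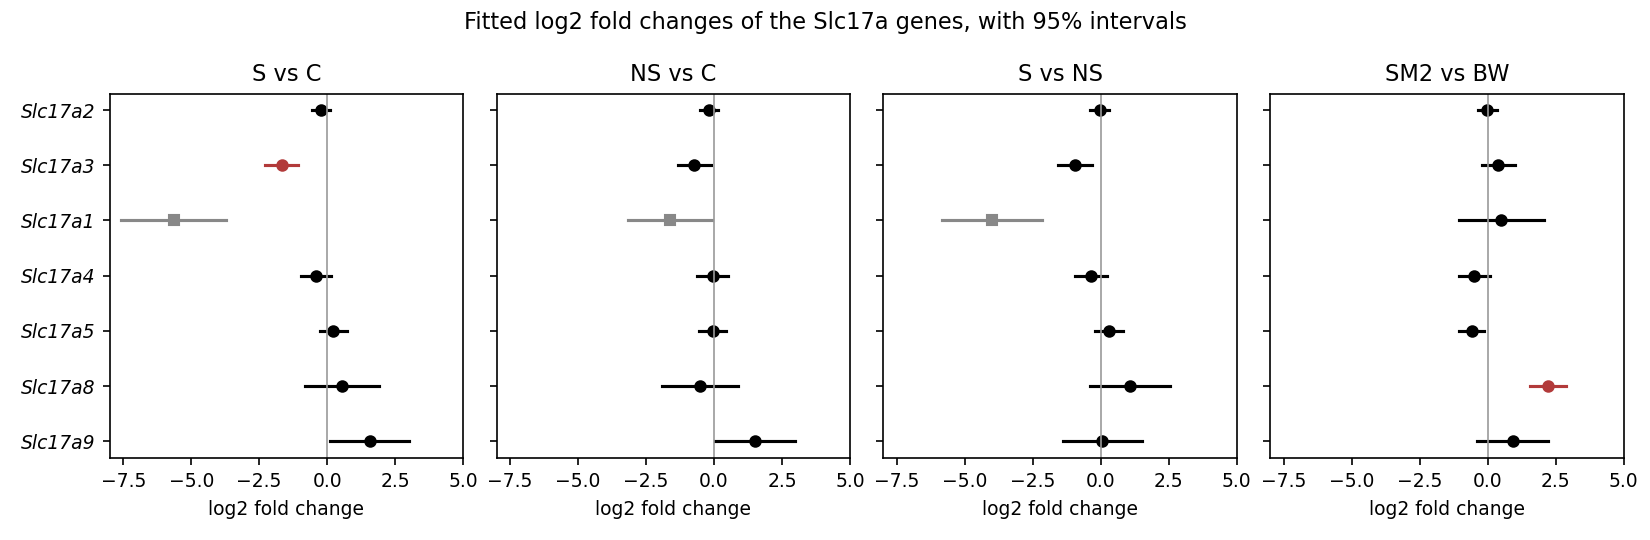
Fitted log2 differences of the 7 Slc17a genes that passed the filter, for S vs C, NS vs C, S vs NS and SM2 vs BW, with 95% intervals. Red marks a called gene, black one that was not called, and the grey square is Slc17a1, which was not tested between the groups. The intervals of Slc17a1 in the group panels are no test, because the gene was chosen by its counts in S and C. Slc17a3 in S vs C at -1.67 and Slc17a8 in SM2 vs BW at 2.22 are the called values.

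Outside the cluster, no family member was called between the groups. Slc17a5, the lysosomal exporter of sialic acid, was at 8.36 to 12.5 CPM in C, 5.80 to 15.1 CPM in NS and 8.16 to 13.7 CPM in S, so the groups overlapped throughout. Its S vs C difference was 0.23 on the log2 scale (95% interval -0.26 to 0.72, adjusted p = 0.575, edgeR). Slc17a9, the vesicular nucleotide carrier, was low in all groups, at 0 to 42 counts per animal. It was at 0 to 0.938 CPM in C, 0.543 to 3.03 CPM in NS and 0.556 to 4.00 CPM in S. The difference was 1.56 (SE 0.69, adjusted p = 0.1832, edgeR) in S vs C and 1.51 (SE 0.69, adjusted p = 0.5941, edgeR) in NS vs C, and the groups overlapped. Slc17a9 was not called.

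The 3 genes for vesicular glutamate carriers had little or no signal in liver. Slc17a6 had no count in any of the 16 animals, and Slc17a7 had 1 count, in animal C 10876. A count of 0 allows up to 3 counts per library, a one-sided 95% limit for counting error only, so lower levels were not detectable at this depth. In C 35972 that limit was 0.433 CPM, where the two-sided interval used for Slc17a1 would end at 0.533 CPM. Slc17a8 was detected in every animal, with 9 to 172 counts. It was at 1.25 to 12.99 CPM in C, 1.70 to 5.67 CPM in NS and 1.83 to 21.0 CPM in S, and was called in no group comparison.

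Slc17a8 differed between the stocks. The SM2 animals were at 12.99 CPM in C (10876), 5.67 CPM in NS (10865) and 21.0 CPM in S (10880). The 13 BW animals lay between 1.25 CPM (C 35975) and 4.21 CPM (C 36007), with a median of 2.56 CPM, so that each SM2 animal was above every BW animal of all 3 groups. With group in the model, SM2 exceeded BW by 2.22 on the log2 scale (SE 0.31, 95% interval 1.56 to 2.88), or 4.66-fold, with an adjusted p of 0.0001598 by edgeR. The call held under every alternative and with each animal left out, where the difference ranged from 1.85 to 2.59. In SM2 vs BW 10.8% of all genes tested were called and 5.91% were called higher in SM2, and 3.77% had all SM2 animals above all BW animals. Only 3 SM2 animals, 1 per group, enter this comparison.

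Some markers of other cell types also differed between the stocks. The pancreas acinar markers, with Pnlip at 0 in every animal, summed to their highest level of each group in the SM2 animal, at 6.30 CPM in C (lowest 2.44), 7.82 CPM in NS (lowest 2.18) and 18.9 CPM in S (lowest 0.563). Of the 3 tested, Cela1 (1.79, adjusted p = 0.01307, edgeR) and Ctrb1 (3.52, adjusted p = 0.02416, edgeR) were called higher in SM2. Of 5 Kupffer cell markers 1 was called higher and 2 lower, and of 5 sinusoidal endothelial markers likewise 1 higher and 2 lower, among them Lyve1 at 2.76 (adjusted p = 0.00627, edgeR) and Pecam1 at -1.80 (adjusted p = 0.0002459, edgeR). Of 5 cholangiocyte markers 2 were called lower. In the other lists 0 were called, of 5 tested hepatocyte, 5 stellate cell, 4 lymphocyte, 3 kidney tubule and 1 intestinal markers. Of all genes tested 10.8% were called between the stocks. The part of these marker differences in the Slc17a8 difference was not tested.

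**Figure D3:**
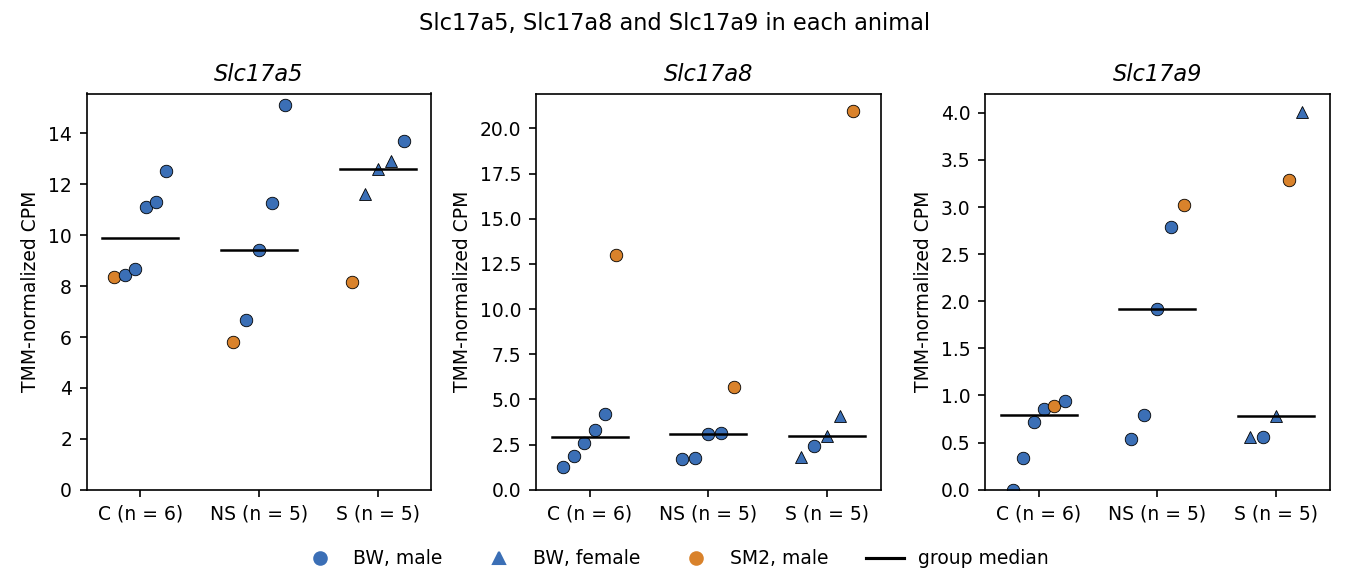
Level of Slc17a5, Slc17a8 and Slc17a9, the members outside the cluster that passed the filter, in each animal of C, NS and S, in CPM. Blue points are BW and orange points SM2 animals, circles are males and triangles females, and black lines are group medians. In the Slc17a8 panel the SM2 animal is the highest of each group, at 12.99, 5.67 and 21.0 CPM, above the highest BW animal at 4.21 CPM.

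No other member was called between the stocks. Slc17a5 was lower in SM2, at 5.80 to 8.36 CPM against 6.67 to 15.1 CPM in BW, and its difference of -0.59 (SE 0.22, adjusted p = 0.0759, edgeR) did not reach the fold of 2. Slc17a1 differed by 0.50 (95% interval -1.07 to 2.07, adjusted p = 0.6955, edgeR), Slc17a3 by 0.39 (95% interval -0.20 to 0.98, adjusted p = 0.3822, edgeR) and Slc17a4 by -0.49 (95% interval -1.06 to 0.08, adjusted p = 0.2399, edgeR). The interval of Slc17a1 was the widest of the family, so a stock difference of 2-fold in either direction lies within it.

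Between the 3 females and 2 males of S, 0 of the 6 other members were called by edgeR, 3 had an unadjusted p under 0.05, and 0.388% of all genes tested were called, with 11.2% at an unadjusted p under 0.05. Those 3 were Slc17a4 at 1.12 higher in females (SE 0.32, adjusted p = 0.2015, edgeR), Slc17a2 at 0.48 (SE 0.21, adjusted p = 0.4128, edgeR) and Slc17a8 at -1.99 (SE 0.87, adjusted p = 0.4055, edgeR). Of the 2 males, 1 was the SM2 animal with 21.0 CPM of Slc17a8. DESeq2 called 1 member, Slc17a4 (adjusted p = 0.06918), and edgeR did so without C 10876 (adjusted p = 0.07504) and among the BW animals alone (adjusted p = 0.01854), where the lone S male was the collagen-rich 36016. Slc17a1 was at 0.371, 0.763 and 10.3 CPM in the females and at 0.188 and 1.22 CPM in the males, a difference of 2.36 (SE 1.53, adjusted p = 0.6029, edgeR).

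Set side by side, the 6 other members had a median log2 difference of 0.00 in S vs C, where the median of all genes tested was 0.10. In NS vs C their median was -0.12 against 0.01, and 0 of 6 were called by edgeR and by DESeq2, with 2 at an unadjusted p under 0.05 (Slc17a3 and Slc17a9). Of all genes 0.0712% were called and 8.29% had such a p. In S vs NS it was 0.01 against 0.04, and 0 of 6 were called by edgeR and by DESeq2, with 1 (Slc17a3) at an unadjusted p under 0.05. Of all genes 0.00791% were called and 10.9% had such a p. Each pair of these comparisons shares the animals of 1 group. Beside Slc17a1, the level of 1 member of 6 thus differed between the groups by the test, that of its neighbour Slc17a3 in S vs C.

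Genes that work on the same solutes were examined as lists, for which the background in S vs C was again 4.06% called. Of 15 tested genes of urate synthesis and breakdown 0 were called in S vs C by edgeR, and their median difference was 0.03. Uox, urate oxidase, which degrades urate in rodents, was nevertheless lower in S, at 1191 ± 235 CPM (SD, n = 5) against 2118 ± 695 CPM in C (n = 6). Its difference of -0.83 (SE 0.21) had an adjusted p of 0.04163 by edgeR and missed only the fold of 2. It was called without that fold minimum, and also with sex as a covariate, at -1.07 (adjusted p = 0.05296, edgeR). In NS Uox was at 1343 ± 269 CPM (n = 5), between C and S. It differed by -0.66 in NS vs C and by -0.17 in S vs NS, and neither was called. The SM2 control 10876 was the highest C animal, at 3453 CPM. Adk, adenosine kinase, likewise had an adjusted p of 0.0803 by edgeR at a difference of -0.41 (SE 0.13), which was below the fold of 2. Its mean was 995 CPM in C, 806 CPM in NS and 748 CPM in S. Uox and Adk are named as the 2 tested genes of the list with the highest mean CPM. Hprt at -0.51, Urah at -0.75 and Ppat at -0.52 also had an adjusted p under 0.1 by edgeR and missed the fold of 2. So did Ampd2, in the other direction, at 0.80. In S vs C 23.8% of all genes tested had an unadjusted p under 0.05 by edgeR.

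Of 13 tested genes of urate and organic anion transport 0 were called in S vs C by edgeR, with a median of -0.16. Slco1b2, a hepatocyte carrier of organic anions, was at 1102 ± 73.1 CPM in C (SD, n = 6) and 987 ± 237 CPM in S (n = 5), a difference of -0.16 (SE 0.22). Slc10a1, the bile acid importer of hepatocytes, was at 883 ± 82.7 CPM in C and 666 ± 229 CPM in S, a difference of -0.41 (SE 0.19). Its adjusted p was 0.1958 by edgeR and its difference was under the fold of 2, so Slc10a1 was not called.

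Of 9 tested phosphate transport genes 1 was called, Slc34a2, a sodium-phosphate cotransporter. It was at 1.11 to 4.04 CPM in C, 2.67 to 10.7 CPM in NS and 3.49 to 8.28 CPM in S, and rose by 1.32 on the log2 scale in S vs C (SE 0.40, adjusted p = 0.06898, edgeR). The C and S ranges overlapped, and the call was lost among the BW animals alone (adjusted p = 0.1518, edgeR) and without both S 36016 and S 35990 (adjusted p = 0.1497, edgeR). It was also lost without any 1 of the animals C 35975, C 36001, C 36007, C 10876, S 35982, S 36016 and S 10880, with adjusted p values from 0.1021 to 0.1428 by edgeR. The median over the list was 0.16. Of 12 tested genes of sialic acid handling and the lysosome 0 were called by edgeR, with a median of 0.01. Lamp1, a lysosomal membrane protein, differed by -0.16 (SE 0.13) and Ctsa, which protects the sialidase of lysosomes, by -0.12 (SE 0.15).

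Of 16 genes of glutamate and nucleotide handling that were tested and are reported here, 1 was called, with a median of -0.18. Slc1a2, a glutamate importer of the cell surface, was at 44.9 to 115 CPM in C, 19.2 to 49.9 CPM in NS and 20.6 to 42.9 CPM in S. It fell by 1.38 in S vs C (SE 0.31, adjusted p = 0.02812, edgeR), and no S animal reached the lowest C animal. With sex as a covariate the difference was -1.25 and was not called (adjusted p = 0.11, edgeR). The call was also lost among males alone (adjusted p = 0.1263, edgeR) and without both S 36016 and S 35990 (adjusted p = 0.1183, edgeR).

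Of 12 tested hepatocyte transcription factors 0 were called in S vs C by edgeR, with a median of 0.32. Hnf4a, a regulator of many liver carriers, was at 239 ± 52.9 CPM in C (SD, n = 6) and 241 ± 65.0 CPM in S (n = 5). Nr1i3, a nuclear receptor for foreign compounds, was at 244 ± 63.8 CPM in C and 129 ± 33.1 CPM in S, a difference of -0.93 (SE 0.29, adjusted p = 0.07293, edgeR) that did not reach the fold of 2. It reached that fold and was called without S 35955, at -1.01 (adjusted p = 0.08168, edgeR), or without S 10880, at -1.04 (adjusted p = 0.06116, edgeR). Of these lists, edgeR called 0 genes between NS and C and 0 between S and NS. Of all genes tested only 0.0712% and 0.00791% were called there, so these counts of 0 are no result about the lists.

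Genes with a known sex bias were examined because all females were in S. Of 3 tested male-biased liver genes of the mouse, Cyp7b1, an oxysterol hydroxylase, fell by 1.74 in S vs C (SE 0.47, adjusted p = 0.0497, edgeR), and this was no longer called with sex as a covariate (adjusted p = 0.258, edgeR), among males alone (adjusted p = 0.282, edgeR), without both S 36016 and S 35990 (adjusted p = 0.1719, edgeR), without C 35975 (adjusted p = 0.1021, edgeR) or without C 36007 (adjusted p = 0.1151, edgeR). The median of the 3 was -0.61. Of 8 tested female-biased genes, A1bg rose by 7.28 (SE 1.47, adjusted p = 0.02066, edgeR) and the median was 0.04, and with sex as a covariate the A1bg difference was 0.23 (adjusted p = 0.9516, edgeR). Between S females and S males A1bg was the only 1 of these 8 called, at 7.78 (adjusted p = 0.08695, edgeR). Of the 3 male-biased genes 0 were called there. That A1bg call was lost in 4 of 9 alternatives and without any 1 of 10 animals. Slc17a3 was called with sex as a covariate, at -1.44 (adjusted p = 0.0586, edgeR). With sex in the model, the S vs C difference of any gene rested on the 2 S males, 36016 and the SM2 animal 10880. The part of sex in these differences was not tested.

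**Figure D4:**
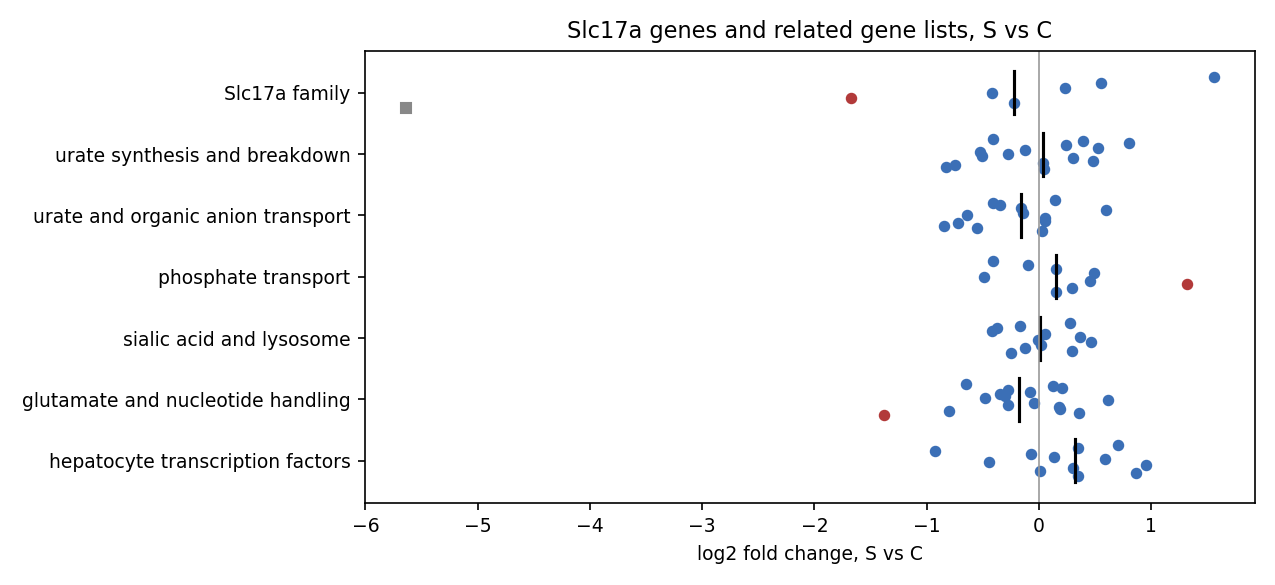
Fitted log2 differences in S vs C of the Slc17a genes and of each reported gene in the 6 lists that are not about sex, 1 point per gene. Red points are called genes, blue points are not called, and the grey square is Slc17a1, which was not tested. Black lines are the medians of the genes drawn, Slc17a1 included. Slc17a1 at -5.64, Slc17a3 at -1.67 and Slc17a9 at 1.56 lie farthest out.

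Between the stocks 10 of the 88 tested genes of all these lists were called, or 11.4%. That share is near the 10.8% called among all genes and is no result about the lists. In S vs C it was 4 of the 88, or 4.55%, likewise near the 4.06% of all genes. In organic anion transport, Abcc4 and Abcc2, export pumps, were lower in SM2 by -2.02 (SE 0.24, adjusted p = 3.126e-05, edgeR) and -1.22 (SE 0.29, adjusted p = 0.009466, edgeR). Gne, the first enzyme of sialic acid synthesis, was lower by -1.03 (SE 0.17, adjusted p = 0.0005714, edgeR). Nt5e, which makes adenosine outside the cell, and P2rx4, an ATP receptor, were higher by 1.05 (adjusted p = 0.02261, edgeR) and 1.22 (adjusted p = 0.002109, edgeR). Entpd5, a nucleotide diphosphatase, and P2ry2, another nucleotide receptor, were lower by -1.12 (adjusted p = 0.0001715, edgeR) and -2.52 (adjusted p = 0.0002695, edgeR). The vesicular amine carrier Slc18a1 was at 0 to 0.126 CPM in SM2 and at 0.563 to 5.91 CPM in BW (adjusted p = 0.004296, edgeR). Foxa1, a hepatocyte transcription factor, was higher by 1.70 (adjusted p = 0.0002909, edgeR). Cyp17a1, a steroid hydroxylase, was called lower (adjusted p = 0.08506, edgeR) but was at 0 to 0.763 CPM in all animals.

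Several of these stock calls depended on the setting. Cyp17a1 was lost without any 1 of 10 animals, with DESeq2 (adjusted p = 0.1022), with sex as a covariate (adjusted p = 0.1425, edgeR) and among males alone (adjusted p = 0.1239, edgeR). Gne fell below the fold of 2, at -0.92, without NS 10865, with sex as a covariate and among males alone. Without NS 10865 the calls of Nt5e (1.02, adjusted p = 0.1178, edgeR) and Abcc2 (-0.87, adjusted p = 0.1044, edgeR) were lost too. Nt5e was also below that fold without C 36001, NS 35930 or S 35990, at 0.98 to 1.00, and Entpd5 without C 10876, at -0.99.

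The genes whose levels ran most like those of Slc17a1 were named by Pearson's r of log2 CPM (prior count 2) over the 16 animals, which shared 1 normalization and the same group structure. They were Rbp4 (r = 0.879), which encodes the retinol carrier of plasma, Prkd3 (0.874), a kinase, Ptp4a3 (0.862), a phosphatase, Eif1ax (0.857), a translation factor, and Cntf (0.848), a neurotrophic cytokine. Each had its highest mean in C and its lowest in S. That order was made likely by choosing the genes for their likeness to Slc17a1, and is no separate result. Rbp4 was at 6121 to 9184 CPM in C, 5645 to 8419 CPM in NS and 3071 to 4882 CPM in S, so that S overlapped neither of the other groups. Eif1ax was at 46.6 to 59.4 CPM in C, 43.9 to 53.8 CPM in NS and 33.5 to 37.8 CPM in S, likewise without overlap of S. Such a lack of overlap, with S lower, was found in 2.33% of all genes tested against C and 0.752% against NS. Ptp4a3 was at 104 to 124 CPM in C and 15.6 to 63.7 CPM in S. Prkd3 overlapped, at 663 to 894 CPM in C and 400.0 to 791 CPM in S, and Cntf was low in all groups, at 2.33 CPM or less.

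Among the animals without steatosis the likeness was mostly weaker. Over the 11 C and NS animals r was 0.399 for Rbp4, 0.316 for Ptp4a3 and 0.427 for Eif1ax, but still 0.785 for Prkd3 and 0.703 for Cntf. Within the family, Slc17a3 was most like Slc17a1, with r = 0.767 (rho = 0.859), place 70 among all genes tested, and 0.461 over the 11 C and NS animals. Slc17a2 had r = 0.505, Slc17a4 0.394, Slc17a8 -0.07, Slc17a9 -0.28 and Slc17a5 -0.29. Slc17a4 was at -0.56 over the 11 C and NS animals, where the 2 controls highest in Slc17a1, 36007 and 10876, had the lowest Slc17a4 of their group. These values are descriptions over 16 or 11 animals and were not tested.

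**Figure D5:**
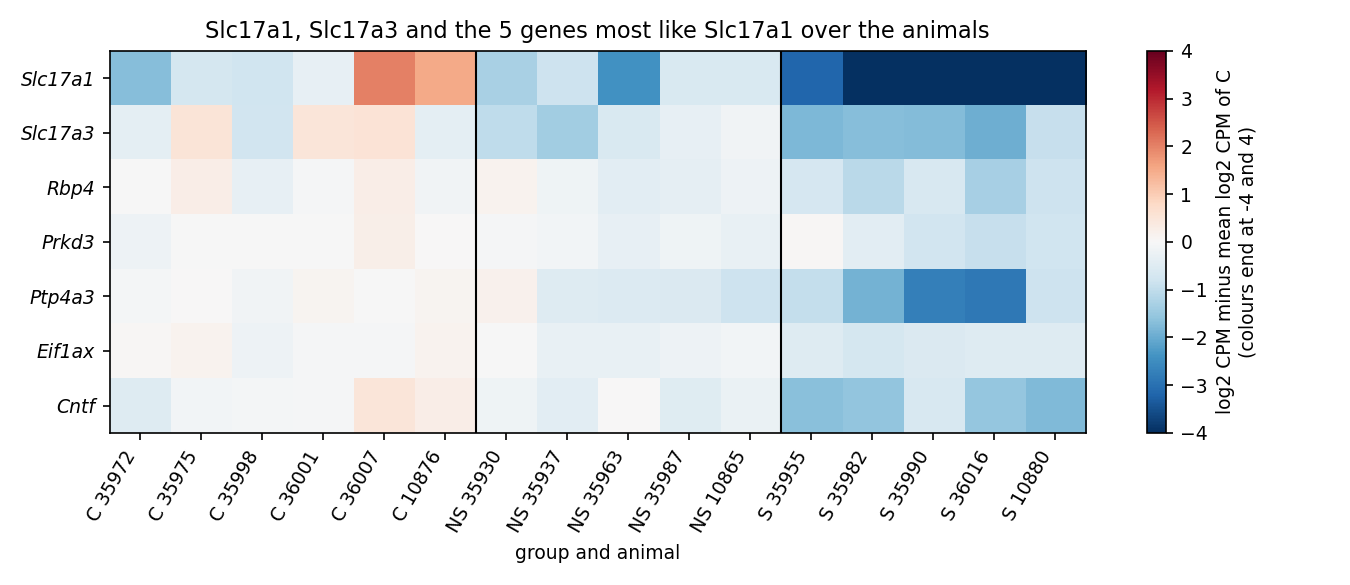
Heat map of Slc17a1, Slc17a3 and the 5 genes most like Slc17a1 in each of the 16 animals, as log2 CPM minus the gene's mean log2 CPM in C, with blue for lower and red for higher values, the animals ordered by group and the colours ending at -4 and 4. The S columns are mostly the bluest, and 4 of the 5 S animals are at the end of the scale for Slc17a1.

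The coordination index Pc compares how a gene correlates with all other genes within a group between 2 groups, where values near 1 mean that the pattern was kept and negative values that it was inverted. It was calculated on the deposited counts over 13431 genes for S and C, 13336 for NS and C and 13385 for S and NS. In S vs C Slc17a1 had a Pc of 0.149 (jackknife SE 0.150) and Slc17a3 of 0.195 (SE 0.176). The highest members in S vs C were Slc17a2 at 0.315 (SE 0.0701) and Slc17a8 at 0.286 (SE 0.349), and the lowest was Slc17a9 at 0.0415 (SE 0.177). The SE reached or passed the value for Slc17a1, Slc17a8 and Slc17a9. Over all genes the median on this scale was 0.201, with quartiles of 0.0301 and 0.305, so 0 is not the usual value. Slc17a2 lay above the upper quartile by less than its SE. The other members, among them Slc17a5 (0.269, SE 0.0749), lay between the quartiles. On CPM of the total counts Slc17a5 was at 0.316 but Slc17a2 at -0.109, so for Slc17a2 the sign depended on the scale.

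In NS vs C Pc was 0.0753 (SE 0.169) for Slc17a1 and -0.0823 (SE 0.226) for Slc17a3, and in S vs NS it was 0.154 (SE 0.230) and then 0.251 (SE 0.247). The median over the 7 members was 0.253 for S and C, 0.0306 for NS and C and 0.251 for S and NS. Over all genes the median was 0.201, 0.102 and 0.174 in the same order. Deposited counts are not scaled for library size, and on CPM of the total counts the S vs C Pc of Slc17a1 was -0.0639 and that of Slc17a2 -0.109, with a median of -0.0113 over the members and 0.105 over all genes. On deposited counts the Pc of Slc17a8 in S vs C was -0.0374 without the SM2 animal S 10880.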

How the data were processed

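Liver RNA of 16 animals was sequenced from libraries of a directional kit. The raw counts that the authors deposited are numbers of uniquely mapping reads in each gene, from featureCounts after alignment by STAR 2.7.2 to the assembly HU_Pman_2.1, and were not normalized. The counting strand and the conversion to symbols are not given in the sources used here. Groups, stock and sex came from the labels.

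Of the 16910 genes, the 12639 that reached 0.5 CPM in 1 or more animals were tested in R 4.3.3. The main test was edgeR's quasi-likelihood F-test (edgeR 4.0.16, limma 3.58.1) after TMM scaling, with the 16 animals fitted together. Genes were called at a Benjamini-Hochberg adjusted p under 0.1 over all genes tested and a fold of at least 2. Stock and sex were fitted with group as a covariate. DESeq2 1.42.0 was an alternative. The fit was tested on simulated data, where 89.0% of 200 genes changed 4-fold were recovered in S vs C (12306 genes, 12 false calls), 87.5% in SM2 vs BW (12311 genes, 11 false calls) and 74.5% in females vs males (12297 genes, 8 false calls). Pc, the correlations and the figures were made with numpy 2.4.6, scipy 1.17.1, pandas 2.3.3 and matplotlib 3.10.9 under Python 3.11.15.

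Named genes were all Slc17a rows, the 5 genes most like Slc17a1, 3 annotated genes on each side of the cluster and, of each list, those called (at most 4) or otherwise the 2 with the highest mean CPM. In the list of glutamate and nucleotide handling, 1 gene is not reported here. The members and lists were chosen with earlier results of these data known. RefSeq matched 9 of 9 Slc17a rows and gave names and gene order only, since its assembly (HU_Pman_BW_mat_3.1) differs. Intervals on counts cover counting error only. The animals were labelled as biological replicates, and no 2 samples of a group agreed within sampling noise (lowest chi-square per degree of freedom 23.6).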

Additional observations from a re-analysis of the deposited data

Results flagged for a closer look

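In 6 of 22 sets of 1 gene in 1 group, a single animal lay farther from the others than Dixon's 95% limit, where chance alone gives about 1 set in 20. For Slc17a1, S 35955 was at 10.3 CPM while the other S animals lay between 0.188 and 1.22 CPM. For Slc17a3, the SM2 animal S 10880 was at 129 CPM against 63.6 to 75.2 CPM in the rest of S. The SM2 animal C 10876 stood out for Slc17a4, at 31.6 CPM against 60.7 to 77.6 CPM, for Slc17a8, at 12.99 CPM against 1.25 to 4.21 CPM, and for Slc17a7, where its 1 count (0.0984 CPM) was the only one. A single count among libraries at 0 always passes that limit, so the Slc17a7 value carries no information. S 10880 also stood out for Slc17a8, at 21.0 CPM against 1.83 to 4.10 CPM. Of the other 5 values, 4 came from SM2 animals, and the exception was S 35955. The part of stock in the Slc17a3 and Slc17a4 values was not tested beyond the comparison of SM2 with BW. Slc17a7 did not pass the filter on low counts and was not tested.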

How the results depend on the processing

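Slc17a3 was called lower in S vs C and Slc17a8 higher in SM2 under every alternative run and with each animal left out. The family count in S vs C was 2 with sex as a covariate or males alone, by the addition of Slc17a4, and 1 to 1 with animals left out. Between females and males it was 1 with DESeq2 and with BW animals alone, and 0 to 1 with animals left out. In SM2 vs BW it was 1 to 1. The cause was not tested.

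Over all genes, the calls in NS vs C numbered 53 with DESeq2, 5 at an adjusted p under 0.05 with no fold minimum and 29 with stock as a covariate, and 2 to 29 with animals left out. In S vs NS they numbered 71 with DESeq2, 17 with stock, 191 with sex, 18 in BW animals, 157 in males, 0 in a fit of only these groups and 1 to 15 with animals left out. Leaving out S 36016 and S 35990, an alternative chosen after seeing the data, gave 191 in S vs C, 0 in S vs NS and 11 between females and males. S vs C gave 190 to 573, and SM2 vs BW 868 to 1448, with animals left out. Female vs male calls numbered 205 with DESeq2, 0 with at least 1 CPM in 5 animals, 0 at 0.05, 153 with stock, 650 in BW animals, 0 in the S animals alone and 0 to 487 with animals left out, where a lone sample is assumed to vary like the others.

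The median Pc in S vs C was -0.0113 on CPM of total counts, 0.108 on TMM-normalized CPM and 0.181 to 0.258 with animals left out. By Spearman's rho, 3 of the 5 genes like Slc17a1 stayed among the 50 highest.

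Signs turned in differences that were not called. With stock as a covariate, Slc17a4 was 0.019 in NS vs C, and in females vs males Slc17a5 was -0.079 and Slc17a9 0.75. Hnf4a in S vs C was -0.012 with stock and -0.20 with sex or males alone, Abt1 -0.067 and -0.066 with those, and Slc17a2 in SM2 vs BW 0.12. BW animals alone gave 0.019 for Slc17a5 in NS vs C, 0.0078 for Slc17a2 in S vs NS, and for females vs males 0.17 (Slc17a3), -0.18 (Slc17a5), 0.24 (Slc17a8) and 1.65 (Slc17a9). Without S 36016 and S 35990, S vs NS was 0.10 for Slc17a2 and -0.21 for Slc17a9. With single animals left out, ranges that crossed 0 were as follows. In S vs C they were -0.64 to 1.28 for Slc17a8, -0.13 to 0.12 for Hnf4a and -0.041 to 0.11 for Abt1. In NS vs C they were -0.19 to 0.023 for Slc17a4, -0.28 to 0.082 for Slc17a5 and -0.86 to 0.21 for Slc17a8. In S vs NS they were -0.18 to 0.071 for Slc17a2, -0.11 to 1.41 for Slc17a8 and -0.45 to 0.32 for Slc17a9. In SM2 vs BW they were -0.024 to 1.07 for Slc17a1 and -0.065 to 0.051 for Slc17a2. In females vs males they were -0.34 to 4.34 for Slc17a1, -0.82 to 0.20 for Slc17a3, -0.15 to 0.60 for Slc17a5, -2.82 to 0.27 for Slc17a8 and -1.51 to 1.66 for Slc17a9.

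Depth limits Slc17a1 in S, Slc17a9 and Slc17a7, with 0 to 10 counts in most of these libraries. No paired analysis was possible because the animal numbers differ between the groups.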
